A study of Mus musculus with 2 samples.

Results

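The cells described here are mostly epithelial cells of the mouse cochlea, named for the genes Fabp7 and Fzd9. They were chosen by a rule on raw molecule counts. A cell counted when at least 3 of the 5 genes Fabp7, Fzd9, Epyc, Gata3 and Aqp4 had 1 or more unique molecular identifiers (UMIs, each a tag on 1 captured RNA molecule) and when it had more UMIs of Fabp7 than of Ucma. Of 1975 kept cells, 72 met the rule, 66 in library 1 and 6 in library 2. A cell was kept when it had at least 300 detected genes and at most 20% of its UMIs from mitochondrial genes. The study is a survey of the cochlea by droplet single-cell RNA sequencing, with 1 group and no treatment. Both libraries came from wild type C57BL/6 mice at postnatal day 20. The protocol gives 5 to 8 mice as the source, whose cochleae were digested with trypsin, and does not say whether the libraries were made from separate pools of animals.

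The cochlear duct is lined by a continuous epithelium. Its sensory part, the organ of Corti, holds hair cells and several kinds of supporting cell, and on either side of it lie the inner sulcus cells and the Hensen, Claudius and outer sulcus cells. Supporting cells are joined by gap junctions of connexin 26 and connexin 30, the products of Gjb2 and Gjb6. They also take up potassium and glutamate released around hair cells, and tight junctions seal the epithelium against the potassium-rich endolymph. Fabp7 encodes a brain-type fatty acid-binding protein, an intracellular lipid carrier known from radial glia and from supporting cells around inner hair cells. Fzd9 encodes a Frizzled receptor for Wnt ligands. Epyc encodes epiphycan, a small leucine-rich proteoglycan of the cochlear epithelium. Gata3 is a transcription factor that the developing and adult inner ear needs, and Aqp4 is a water channel of supporting epithelia.

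The genes of the rule lie at 5 separate places, given here in the mm10 build with the GENCODE M21 annotation. Fabp7 is the gene at chr10:57784881-57788450 on the plus strand, and Fzd9 is the gene at chr5:135248938-135251230 on the minus strand. Epyc lies at chr10:97644068-97682454 on the plus strand, where its exons overlap Gm10754 on the other strand. Gata3 lies at chr2:9857078-9890034 on the minus strand, with exons shared with 9230102O04Rik on its own strand. The labels do not state whether counting used strand, so reads of such overlapping genes cannot be told apart. Promoter windows of Fabp7, Fzd9 and Epyc are shown because the UMIs of these genes define the cells. A window is the 250 bases before a transcript start in RefSeq for GRCm38.p6, and RefSeq starts differ from the GENCODE starts given above. Only the bases of a window ahead of the first GENCODE exon of the gene are printed, 208 for Fabp7, 67 for Fzd9, and 250 and 236 for the 2 starts of Epyc. Sequences are on the strand of the gene, 5′ to 3′. Capitals mark matches on either strand to a GATA motif (AGATAA or AGATAG or TGATAA or TGATAG) or to a SOX motif (ACAAAG or ACAATG).
Fabp7, chr10:57784673-57784880, plus strand: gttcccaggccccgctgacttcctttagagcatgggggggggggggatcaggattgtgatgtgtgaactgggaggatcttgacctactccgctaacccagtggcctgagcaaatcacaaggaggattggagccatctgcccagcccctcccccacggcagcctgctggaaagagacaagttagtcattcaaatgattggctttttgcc
Fzd9, chr5:135251231-135251297, minus strand: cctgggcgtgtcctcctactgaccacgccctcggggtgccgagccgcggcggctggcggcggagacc
Epyc, first start, chr10:97643818-97644067, plus strand: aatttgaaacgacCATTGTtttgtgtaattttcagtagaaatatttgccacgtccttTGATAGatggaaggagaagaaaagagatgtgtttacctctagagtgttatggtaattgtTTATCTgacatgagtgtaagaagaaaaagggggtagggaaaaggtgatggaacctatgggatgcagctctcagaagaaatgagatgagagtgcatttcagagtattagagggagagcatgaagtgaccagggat
Epyc, second start, chr10:97646853-97647088, plus strand: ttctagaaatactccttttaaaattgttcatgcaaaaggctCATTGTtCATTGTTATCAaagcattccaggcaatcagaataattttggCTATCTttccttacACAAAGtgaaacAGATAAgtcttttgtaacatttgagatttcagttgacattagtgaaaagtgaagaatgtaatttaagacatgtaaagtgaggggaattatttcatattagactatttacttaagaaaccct
The whole windows of Fabp7 and Fzd9 held neither motif. The first Epyc window held 2 GATA matches and 1 SOX match, and the second held 3 of each, with 1 GATA and 1 SOX match overlapping. Of 32851 promoter windows of the same length, 26.5% held the GATA motif and 25.2% the SOX motif. A match is a description of the letters and not a measured binding site.

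The 2 libraries differed in size. Library 1 had 1610 barcodes and 20212520 UMIs, and library 2 had 720 barcodes and 7094752 UMIs. Kept cells numbered 1331 and 644, with a median of 10601 and 6115.5 UMIs. The 66 cells of library 1 were 4.96% of its kept cells (exact binomial 95% interval 3.86 to 6.27), and the 6 cells of library 2 were 0.932% of its kept cells (0.343 to 2.02). The Fabp7 epithelial cells were deep, with a median of 18951 UMIs (5070 to 68676) in library 1 and 14950.5 (10029 to 22280) in library 2, and summed to 1347641 and 90625 UMIs. Every value for library 2 therefore rests on 6 cells. The libraries shared 2 barcodes in all and none among these 72 cells. Scrublet, a doublet caller, marked 2 cells of library 1 (0.15%) and 4 of library 2 (0.621%), and none of the 72. Levels below are CPM, UMIs per 1000000 in the UMI sum of a class in 1 library, given for library 1 and then library 2, and intervals cover counting error only.

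The other classes used for comparison were set by rules of the same kind. Ucma epithelium is the related class with at least 3 of Ucma, Frzb, Epyc, Gata3 and Aqp4 and more Ucma than Fabp7, with 41 and 13 cells. Fibin supporting-type epithelium has at least 2 of Fibin, Otol1 and Lfng, with 71 and 9 cells. Otof hair cells have at least 3 of Otof, Slc17a8, Myo7a, Pou4f3 and Calb2, with 43 and 4 cells. Otos fibrocytes of the lateral wall numbered 73 and 18, and Dcn fibroblasts 138 and 135. A cell that met several rules stayed with the Fabp7 epithelium.

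The values of the rule genes are a description of the choice and carry no test. Fabp7 stood at 363 and 320 CPM in the Fabp7 epithelium. It was at 6.01 and 18.5 CPM in the Ucma epithelium, at 12.4 CPM and at 0 in the Fibin epithelium, and at no more than 3.30 CPM in fibrocytes and fibroblasts. Single cells of library 1 held 1 to 42 Fabp7 UMIs, with a median of 5, and those of library 2 held 2 to 13. Fzd9 stood at 325 and 905 CPM, with 31.5 and 83.4 CPM in the Ucma epithelium, 14 CPM and 0 in the Fibin epithelium, and 34.2 and 72.1 CPM in fibrocytes. The Fzd9 level was the rule gene that differed most between the libraries. Epyc did not set these cells apart from the Ucma epithelium: it stood at 5272 and 5374 CPM here and at 6664 and 5864 CPM there, against 812 and 1184 CPM in the Fibin epithelium. Gata3 was at 1335 and 1501 CPM, followed by 898 and 1353 CPM in the Ucma epithelium, 667 and 1038 CPM in the Fibin epithelium and 371 and 500 CPM in hair cells. Aqp4 was at 240 and 419 CPM, against 107 and 204 CPM in the Ucma epithelium and 26.4 and 178 CPM in the Fibin epithelium. Ucma itself was at 12.6 CPM and 0, against 1523 and 361 CPM in the class named for it.

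**Figure D1:**
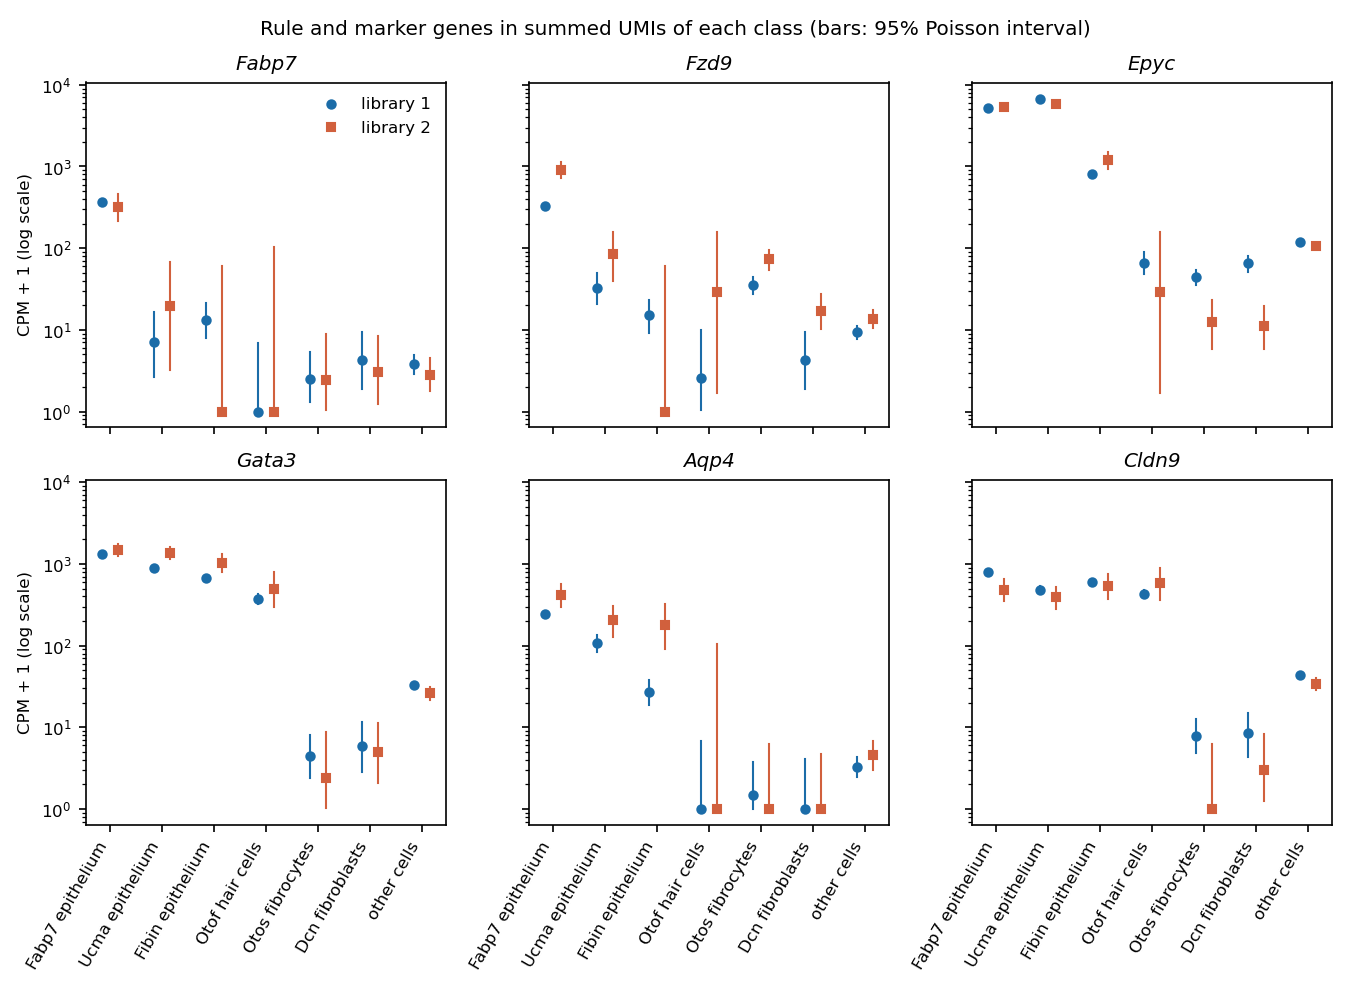
Levels of the 5 rule genes and of Cldn9 in each class, as CPM + 1 on a log axis, with circles for library 1, squares for library 2 and bars for the exact Poisson 95% interval of the count. Fabp7 lies at 363 and 320 CPM in the Fabp7 epithelium and under 20 CPM in every other class drawn, whereas Cldn9 lies between 389 and 797 CPM in all 4 epithelial classes, hair cells included.

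To compare shares of cells across depths, every cell was thinned to 3000 UMIs. Fabp7 was then seen in 56.1% of the 66 cells of library 1 (exact 95% interval 43.3 to 68.3) and in 33.3% of the 6 cells of library 2 (4.33 to 77.7). All 72 had a Fabp7 UMI before thinning, since the rule needs one. Dcn fibroblasts, which should lack the gene, showed Fabp7 in 0 of 138 and 1 of 135 thinned cells. Fzd9 was seen in 48.5% (36.0 to 61.1) and 50% (11.8 to 88.2) of thinned cells, and in 63.6% and 83.3% before thinning. In fibroblasts Fzd9 was seen in 1.45% and 2.22% of thinned cells, and in fibrocytes in 11% and 16.7%. Free RNA in the droplets was not corrected for.

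The markers given for these cells, Fabp7, Fzd9, Epyc, Gata3 and Cldn9, all had UMIs, but only Cldn9 lies outside the rule. Their sum was 8092 and 8585 CPM here and 8077 and 7708 CPM in the Ucma epithelium, so it did not set these cells apart. Cldn9, a claudin of cochlear tight junctions at chr17:23682584-23684026, was at 797 and 486 CPM, against 6.94 CPM and 0 in fibrocytes and 7.42 and 2.03 CPM in fibroblasts. Epcam, the general epithelial adhesion molecule, was at 619 and 419 CPM. The list of 13 otic epithelial markers summed to 3614 and 2483 CPM, with 12 of 13 detected in each library. It summed to 3420 and 3317 CPM in the Ucma epithelium and to 3532 and 5419 CPM in the Fibin epithelium. In fibrocytes the sum was 1639 and 2260 CPM, close to these cells in library 2. Of the organ of Corti supporting cell markers, S100a1 made up nearly all of a summed 39675 and 47305 CPM, and all 10 were detected in library 1 and 7 of 10 in library 2. S100a1, a small calcium-binding protein, was at 38897 and 46830 CPM. The Hensen and Claudius list summed to 16547 and 16607 CPM, mostly through Fbxo2, a ubiquitin ligase adaptor, at 12186 and 13153 CPM. In library 2, 2 of its 6 genes were at 0. Aqp4 of that list is a rule gene, and Bmp4 had 2 UMIs, against 154 in the Ucma epithelium. Fbxo2 was also at 15550.3 and 10358 CPM in the Ucma epithelium and at 8337 and 12735 CPM in the Fibin epithelium. Of the inner phalangeal and border cell list, which shares Fabp7 and Fzd9 with the rule, Slc1a3 was at 227 and 22.1 CPM and Matn4 was not detected in either library. S100a6, the remaining gene of that list, had a UMI in 56 of 66 cells of library 1 and 3 of 6 of library 2. For Slc1a3 these counts were 47 and 2 cells. The pillar and Deiters list summed to 472 and 143 CPM, with 6 of 8 genes at 0 in library 2. It summed to 1283 and 92.6 CPM in the Ucma epithelium and 2316 and 2790 CPM in the Fibin epithelium. Sums over all cells of a library thus held markers of several kinds and could not name 1 kind of supporting cell. Median UMIs of S100a1 were 970.5 in the 44 cells with all 5 rule genes and 268.5 in the 28 with 3 or 4. Those of S100a6 were 2 and 7.5, and those of Slc1a3 were 1 and 5. Whether either set of cells matched 1 kind was not tested.

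Markers of other cells were also measured. The 11 hair cell markers summed to 1395 and 99.3 CPM, with 10 of 11 at 0 in library 2. The 7 neuron markers summed to 370 CPM and 0, and a single cell held most of the Nefh UMIs of library 1, where Nefh stood at 93.5 CPM. By the test described below, all 6 tested neuron markers passed as higher than in the Fibin epithelium, and 5 of them (Tubb3, Snap25, Nefl, Nefm and Nefh) passed as lower than in the Ucma epithelium. Every one of the 7 was at 0 in library 2 in these 3 classes, and with only the cells that had all 5 rule genes none passed as higher than in the Fibin epithelium. The 5 erythroid markers summed to 6732 and 2229 CPM, against 42419 and 2084 CPM in the Ucma epithelium and 27190 and 1833 CPM in the Fibin epithelium. Endothelial markers summed to 2.97 CPM and 0, and macrophage markers to 14.1 and 22.1 CPM. The 7 fibroblast markers summed to 1566 and 750 CPM, of which Lum gave 972 and 585 CPM. Lum, the proteoglycan lumican, was itself at 15.7 and 8.11 CPM in the Dcn fibroblasts, so that it did not mark fibroblasts in these libraries. The part of these other markers in the results below was not tested, apart from the values given without cells that met a second rule.

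The 72 cells were not uniform. Cldn9 had a UMI in 63 of 66 cells of library 1 and in all 6 of library 2. The cell with 123 Nefh UMIs had 1 Fabp7, 1 Gata3 and 13 S100a1 UMIs, and none of Cldn9, Gjb2, Gjb6 or Krt18. Other cells without Cldn9 had 25 and 12 S100a1 UMIs, beside a median of 789 in library 1. The name epithelium is thus not borne out by the values of every cell. All 5 rule genes were detected in 44 cells (39 and 5), 4 of them in 16 cells (15 and 1) and 3 of them in 12 cells, all of library 1. Of the 44, 4 also met the rule of the Fibin epithelium, against 11 of the 16 and 9 of the 12. In all, 24 of the 72 met the Fibin rule, 9 the hair cell rule and 3 the fibroblast rule, and the 29 cells that met any second rule were all in library 1. Depth did not follow this order closely, with median UMIs in library 1 of 19205, 20501 and 13938.5 for 5, 4 and 3 rule genes.

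Cells with all 5 rule genes carried keratin and Notch target transcripts and few connexin transcripts, and cells with 3 or 4 showed the reverse. These are descriptions of cells split by the rule's own genes, so no test is given. In library 1, Krt18, a simple-epithelium keratin, was at 507 CPM in cells with 5 rule genes, at 89.8 CPM with 4 and at 10.6 CPM with 3. In library 2 the 5 cells with all rule genes had Krt18 at 490 CPM. Hey1, a transcriptional repressor induced by Notch signalling, was at 610, 164 and 31.9 CPM in library 1 and at 426 CPM in the 5 cells of library 2. Its relative Hey2 was at 139 CPM, 25.7 CPM and 0 in library 1 and at 142 CPM in the 5 cells of library 2. Gata2, which was chosen after its values were seen, held its level in cells with 4 rule genes: it was at 606, 539 and 53.2 CPM. S100a1 followed the same order, with 50507, 23344 and 12336 CPM.

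The connexins ran the other way. Gjb6 was at 107 CPM in library 1 cells with 5 rule genes, at 712 CPM with 4 and at 899 CPM with 3, and at 0 in the 5 cells of library 2, where 3 UMIs would be 38.7 CPM. Gjb2 was at 274, 1193 and 1149 CPM in library 1 and at 90.3 CPM in the 5 cells of library 2. Slc1a3, the glutamate transporter GLAST, was at 103, 314 and 644 CPM, and Fibin at 87.3, 459 and 489 CPM. Hair cell transcripts moved with the same order, and Otof was at 16.5, 337 and 351 CPM and Calb2 at 25.9, 827 and 1989 CPM. Ceacam16, which encodes a secreted protein of the tectorial membrane, was at 22.4, 468 and 564 CPM. The part of hair cell and Fibin cell RNA in the cells with 3 or 4 rule genes was not tested.

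**Figure D2:**
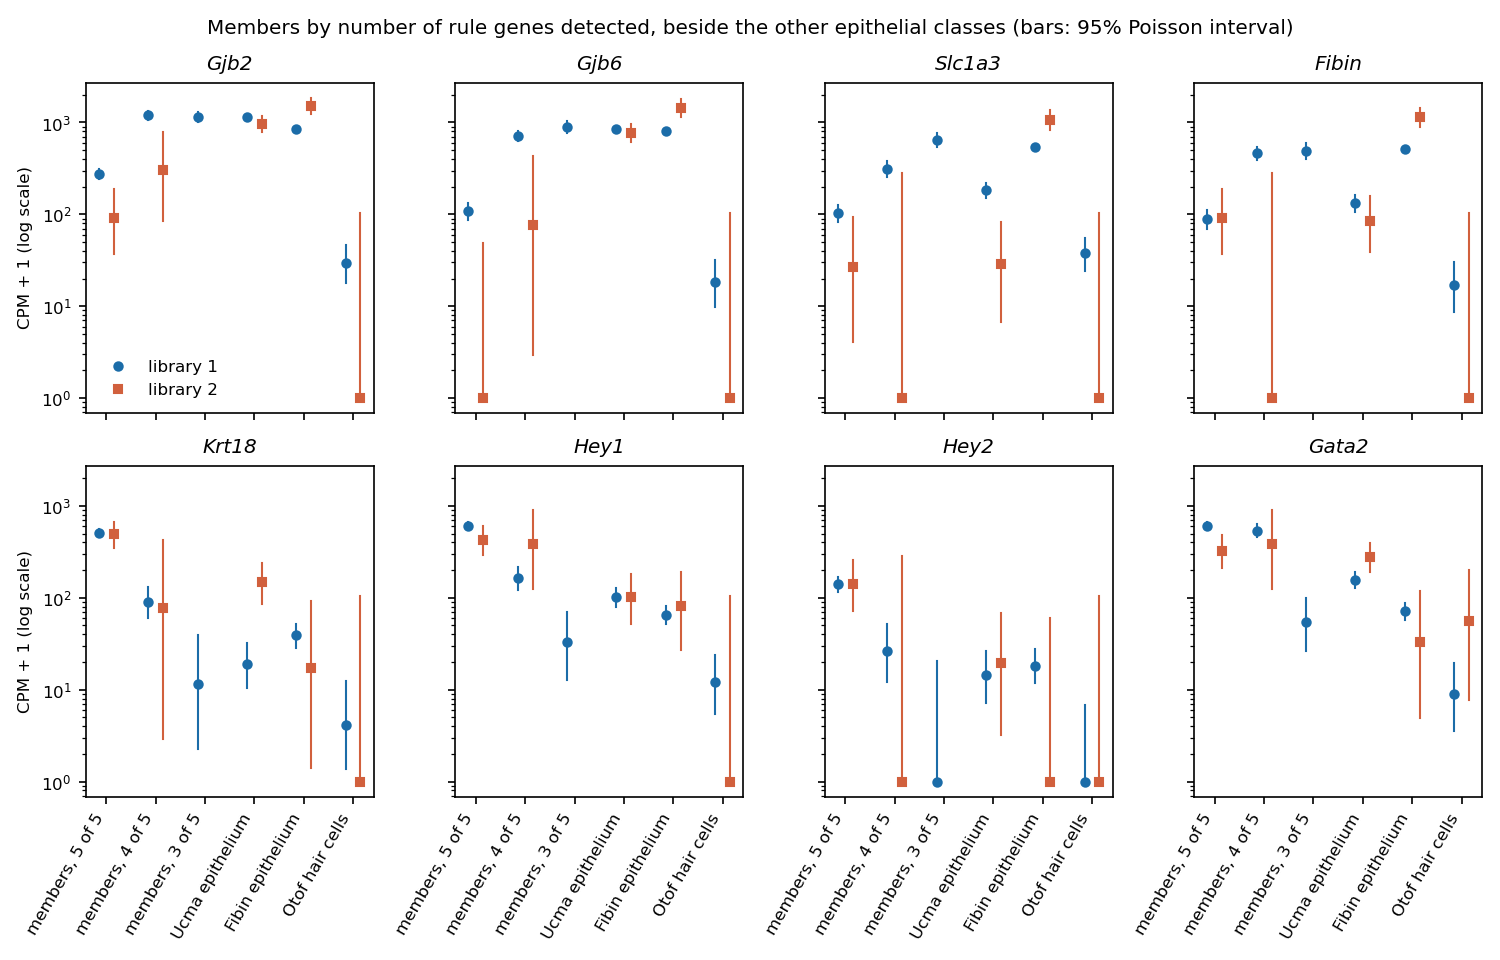
Levels of 8 genes in the Fabp7 epithelial cells by the number of rule genes detected, beside the Ucma, Fibin and hair cell classes, as CPM + 1 on a log axis with exact Poisson 95% intervals. Gjb2, Gjb6, Slc1a3 and Fibin rise from cells with 5 to cells with 3 rule genes in library 1, while Krt18, Hey1, Hey2 and Gata2 drop.

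The same contrast held at equal depth within library 1. After thinning to 3000 UMIs, Gjb6 was seen in 12.8% of 39 cells with 5 rule genes and in 74.1% of 27 cells with 3 or 4, and Gjb2 in 43.6% and 85.2%. Unthinned, Gjb6 had a UMI in 41% and 88.9%. Krt18 was seen in 64.1% and 14.8% of thinned cells, Hey1 in 66.7% and 11.1%, and Fzd9, which the split uses, in 79.5% and 3.70%. In Dcn fibroblasts of library 1, Krt18 was seen in 1.45% and Gjb6 in 5.07% of thinned cells. The 66 cells of library 1 included 24 without a Fzd9 UMI. Across these 66 cells, UMIs per cell of Fzd9 and Gjb6, each divided by the cell's total, had a Spearman correlation of -0.67, and Fzd9 and Krt18 one of 0.77. Gjb2 and Gjb6 had a correlation of 0.77 with each other. These cells share 1 library and differ in depth, and the correlations are given as description only.

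**Figure D3:**
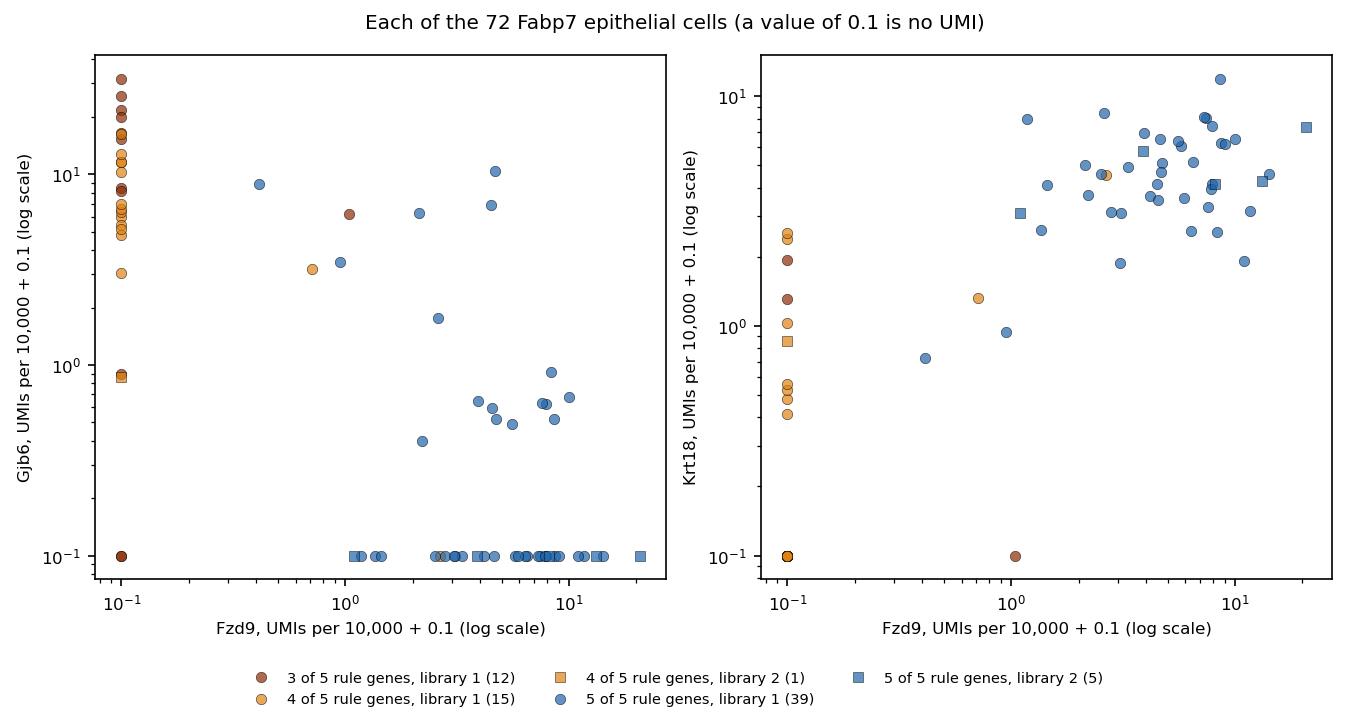
Each of the 72 Fabp7 epithelial cells by Fzd9 (horizontal) against Gjb6 and Krt18 (vertical), in UMIs per 10000 plus 0.1 on log axes, coloured by the number of rule genes and shaped by library. Cells without Fzd9 mostly carry Gjb6 and little Krt18, while cells with Fzd9 carry Krt18 and often have no Gjb6 UMI, including all 5 cells of library 2 that have all rule genes.

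Just outside the threshold lay 23 kept cells (22 and 1) with exactly 2 rule genes and more Fabp7 than Ucma. In library 1 these cells had Fabp7 at 93.6 CPM, beside 95.7 CPM in cells with 3 rule genes. Epyc was at 70.2 CPM against 766 CPM, and Gata3 at 167 CPM against 739 CPM. All cells of both sets have Fabp7 by the rule, and Epyc and Gata3 are rule genes. The split itself therefore favours lower Epyc and Gata3 in the cells with 2 rule genes. These cells with 2 rule genes had Ceacam16 at 1120 CPM and a median depth of 10478.5 UMIs in library 1. A further 47 cells (36 and 11) had 3 or more rule genes and as many Fabp7 as Ucma UMIs, and 34 (26 and 8) had more Ucma.

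Tests were run with edgeR's quasi-likelihood test on UMI sums per class and library, with library as a block and Benjamini-Hochberg adjustment over 10180 genes. The 23 genes that any class rule uses were left out. Since the labels do not name separate animals for the libraries, p-values bear only on the spread between these 2 libraries, which may be technical. For most genes edgeR took that spread from the trend over all genes and not from the gene itself (median prior degrees of freedom infinite), so a p-value says little about how one gene varied between the libraries. The rule genes had led a cluster of these same cells, so other genes are not fully free of that choice. All comparisons share the same 2 sums of Fabp7 epithelial cells. Fold changes are log2 values of the Fabp7 epithelium over the other class, with standard errors, and adjusted p-values are edgeR's unless DESeq2 is named.

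Against the Ucma epithelium, which shares Epyc, Gata3 and Aqp4 with these cells, the Fabp7 epithelium had more Hey1, Hey2, Krt18, Gstm1 and Pcdh17 and less Bmp4, Apoc1 and Fxyd6. Of 10180 genes, 299 passed (2.94%), 113 of them upward (1.11%) and 186 downward (1.83%), with a median log2 difference of 0.0070 over all genes tested. Of the 113, 109 were higher in both libraries, while 110 of the 186 were lower in both, and 102 of the 186 had no UMI in the 6 cells of library 2. DESeq2 also called 17 of the 113 and 16 of the 186. Against the Fibin epithelium, 759 genes passed (7.46%), 365 upward (3.59%) and 394 downward (3.87%), with a median of -0.036 over all genes tested. Of these, 291 were higher and 187 lower in both libraries, and 244 of the 394 had no UMI in the 6 cells. DESeq2 also called 87 of the 365 and 39 of the 394. The calls in the lower direction thus often rest on library 1. Counts of called genes in the lists below are to be read beside the 2.94% and 7.46% of all genes that passed. Of the genes chosen by the naming rule and described below, the calls of Apoe, Ccnd2, Cdkn1b, Cldn7, Crabp2, Fabp3, Gpx4, Hes1, Krt18, Mt2, Rdh10, Tcf7l2, Ttyh1, Tubb4b and Vim against the Ucma epithelium were lost without the library block. Against the Fibin epithelium those of Cldn7, Fabp3, Itpr1, Mt2, Otoa, Tcf7l2 and Vim were lost without it.

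Notch receptors release a cytoplasmic domain on contact with a ligand on a neighbouring cell, which turns on genes of the Hes and Hey families. Of 14 tested genes of the Notch list, 4 were higher than in the Ucma epithelium and none lower, with a list median of 0.69. Against the Fibin epithelium 4 were higher and none lower, with a median of 0.19. Lfng, also of the Notch list, was not tested because the rule of the Fibin epithelium uses it. Lfng had a UMI in 25 of the 72 Fabp7 epithelial cells. Hey1 (chr3:8663359-8667256) was at 426 and 419 CPM, against 101 and 102 CPM in the Ucma epithelium and 64.2 and 81.1 CPM in the Fibin epithelium. The 2 libraries did not overlap between classes, and the differences were 2.06 ± 0.32 (adjusted p = 5.15e-08) and 2.82 ± 0.33 (adjusted p = 1.95e-14). DESeq2 also called Hey1 in both comparisons (adjusted p = 0.0145 and 5.15e-05). Hey2 (chr10:30832359-30842801) was at 93.5 and 121 CPM, against 13.5 and 18.5 CPM and against 17.3 CPM and 0, with differences of 2.74 ± 0.51 (adjusted p = 1.66e-05) and 2.68 ± 0.45 (adjusted p = 3.08e-07). DESeq2 gave Hey2 adjusted p = 0.0984 and 0.031.

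Other Notch genes differed less or in 1 comparison. Hes1 was at 388 and 419 CPM, against 198 and 176 CPM in the Ucma epithelium, a difference of 1.00 ± 0.30 (adjusted p = 0.0291). The DESeq2 adjusted p of Hes1 was 0.716. Against the Fibin epithelium Hes1 differed by 0.02 ± 0.29 (adjusted p = 0.989). Heyl, another repressor of the family, was at 183 and 177 CPM and did not pass in either comparison. The remaining called members were Notch3, a receptor, in both comparisons and Nrarp, a feedback inhibitor of Notch, against the Fibin epithelium.

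Keratins and other filament genes moved in both directions. Of 25 tested, 3 were higher and 5 lower than in the Ucma epithelium (median -0.42), and 7 were higher and 4 lower than in the Fibin epithelium (median -0.22). Tubb3 and Map1b were among both the 5 lower and the 7 higher. Tubb3 is a neuron marker and had no UMI in library 2 in these 3 classes. Krt18 (chr15:102028180-102032027) was at 341 and 430 CPM, against 18.0 and 148 CPM in the Ucma epithelium and 37.9 and 16.2 CPM in the Fibin epithelium. Krt18 was higher by 3.04 ± 0.36 (adjusted p = 1.07e-13) and 3.27 ± 0.34 (adjusted p = 2.19e-18), and DESeq2 gave 0.143 and 0.00507. Its partner keratin Krt8, whose exons overlap Gm36026, was at 92.0 and 66.2 CPM, against 15.0 and 27.8 CPM and 14.8 and 16.2 CPM. Krt8 was higher by 2.32 ± 0.50 (adjusted p = 0.000398) and 2.64 ± 0.46 (adjusted p = 1.25e-06). The tubulin gene Tubb2b also rose in both, by 1.93 ± 0.42 (adjusted p = 0.00041) and 1.69 ± 0.38 (adjusted p = 0.000335), and DESeq2 called it in neither (adjusted p = 0.0632 and 0.0532). Vim, the mesenchymal filament vimentin, was at 108 and 33.1 CPM, against 269 and 222 CPM and 524 and 162 CPM. It fell by 1.55 ± 0.34 (adjusted p = 0.00047) and by 2.03 ± 0.33 (adjusted p = 9.98e-08), with DESeq2 values of 0.166 and 0.0177. Tubb4b, a tubulin of axonemes and cytoplasm, fell in both comparisons, and DESeq2 did not call it against the Ucma epithelium (adjusted p = 0.0676).

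Transcription factors of the inner ear were partly shared. Of 25 tested, 4 were higher and 1 lower than in the Ucma epithelium (median 0.37), and 3 were higher and 3 lower than in the Fibin epithelium (median 0.26). Gata2, chosen after its values were seen, was at 513 and 331 CPM, against 156 and 278 CPM and against 70.8 and 32.4 CPM. Its differences were 1.15 ± 0.31 (adjusted p = 0.00891) and 2.89 ± 0.33 (adjusted p = 4.67e-15). Because Gata2 was chosen in that way, these p-values are description only. The gap to the Ucma epithelium lay mostly in library 1, with 331 and 278 CPM in library 2. Sox2, which marks supporting cells and their precursors, was at 245 and 199 CPM, against 57.1 and 83.4 CPM in the Ucma epithelium, and was higher by 1.85 ± 0.34 (adjusted p = 1.09e-05). DESeq2 did not call Sox2 there (adjusted p = 0.117). Against the Fibin epithelium, where Sox2 was at 157 and 406 CPM, the difference was 0.30 ± 0.29 (adjusted p = 0.745). Sox10 was at 130 and 121 CPM and passed in neither epithelial comparison. Irx1 was the lower gene in both comparisons, and Tbx2 and Rorb were lower than in the Fibin epithelium.

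Genes that handle retinoids, the vitamin A derivatives, were a further group. Of 13 tested, 2 were higher and 3 lower than in the Ucma epithelium (median 0.49), and 4 were higher and none lower than in the Fibin epithelium (median 0.13). Crabp2 (chr3:87948666-87953376), which carries retinoic acid to nuclear receptors, was at 365 and 320 CPM. It was at 165 and 167 CPM in the Ucma epithelium and at 22.2 and 16.2 CPM in the Fibin epithelium, so that the classes did not overlap. The differences of Crabp2 were 1.05 ± 0.30 (adjusted p = 0.022) and 4.10 ± 0.39 (adjusted p = 1.54e-22), with DESeq2 values of 0.204 and 7.33e-16. Rdh10, which makes retinaldehyde, was higher by 1.78 ± 0.48 (adjusted p = 0.012) and 2.15 ± 0.46 (adjusted p = 0.000131), and DESeq2 called it in neither (adjusted p = 0.228 and 0.0527). Aldh1a1, which makes retinoic acid, was at 165 and 177 CPM, against 252 and 195 CPM and against 39.5 and 16.2 CPM. Aldh1a1 differed by -0.52 ± 0.31 from the Ucma epithelium (adjusted p = 0.589) and by 2.27 ± 0.37 from the Fibin epithelium (adjusted p = 8.48e-08).

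Among antioxidant genes, 2 of 28 were higher and 2 lower than in the Ucma epithelium (median -0.37), and 4 were higher and 3 lower than in the Fibin epithelium (median -0.18). Gstm1 (chr3:108012255-108017973), a glutathione transferase, was at 545 and 949 CPM, against 114 and 92.6 CPM in the Ucma epithelium and 85.7 CPM and 0 in the Fibin epithelium. It was higher by 2.69 ± 0.33 (adjusted p = 5.63e-13) and 3.41 ± 0.34 (adjusted p = 1.39e-19), and DESeq2 called both. Gpx4, the peroxidase of membrane lipids, was at 3764 and 3288 CPM and was higher by 0.90 ± 0.25 (adjusted p = 0.0176) and 0.97 ± 0.25 (adjusted p = 0.00377). The metallothionein Mt2 was lower in both, by -4.05 ± 0.61 (adjusted p = 2.06e-08) and -3.65 ± 0.61 (adjusted p = 3.03e-07), and DESeq2 called it in neither (adjusted p = 0.0632 and 0.0584). In library 2 Mt2 was at 11 CPM here and 9.26 CPM in the Ucma epithelium, which is a difference of 0.20 on the log2 scale in the other direction.

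Calcium-binding and annexin genes moved in both directions. Of 27 tested, 4 were higher and 2 lower than in the Ucma epithelium (median 0.0067), and 5 were higher and 4 lower than in the Fibin epithelium (median -0.20). S100a13, a small calcium-binding protein, was at 8859 and 14179 CPM, against 4615 and 5040 CPM and against 1865 and 4413 CPM. It was higher by 1.17 ± 0.24 (adjusted p = 0.000154) and 2.1 ± 0.25 (adjusted p = 1.11e-14), and DESeq2 called the second only. Anxa2, a calcium-dependent membrane linker whose exons overlap Gm16144, was at 1005 and 1379 CPM, against 351 and 482 CPM and 261 and 600 CPM. Anxa2 was higher by 1.47 ± 0.29 (adjusted p = 5.16e-05) and 1.78 ± 0.29 (adjusted p = 1.88e-07), and DESeq2 called both. Itpr1, a calcium release channel of the endoplasmic reticulum, fell by 2.05 ± 0.42 (adjusted p = 0.000185) and by 1.39 ± 0.42 (adjusted p = 0.0186), and DESeq2 did not call the second (adjusted p = 0.286).

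**Figure D4:**
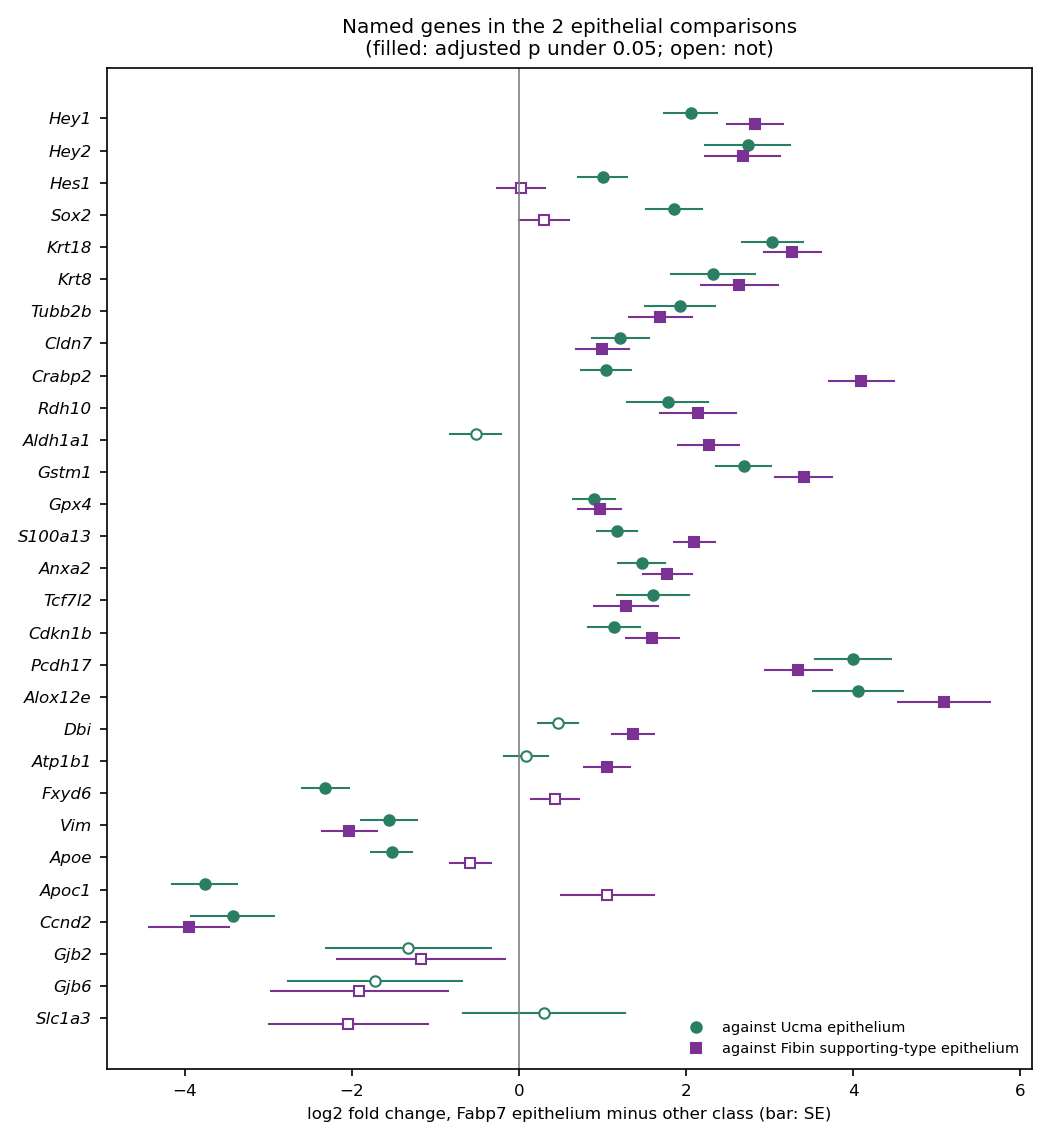
Log2 fold changes of 29 named genes, Fabp7 epithelium over the Ucma epithelium (circles) and over the Fibin epithelium (squares), with bars of 1 standard error and filled symbols for adjusted p under 0.05. Hey1, Krt18, Gstm1, Pcdh17 and Alox12e lie right of zero in both comparisons, and the symbols of Gjb2 and Gjb6 are open, with wide bars on the left.

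Outside the lists, the protocadherin gene Pcdh17 (chr14:84443563-84539002) and the lipoxygenase gene Alox12e (chr11:70315610-70322628) stood out in both comparisons. Pcdh17, which encodes a homophilic adhesion protein, was at 241 and 221 CPM, against 13.5 and 18.5 CPM and 23.9 and 32.4 CPM. It was higher by 4.0 ± 0.46 (adjusted p = 6.52e-15) and 3.35 ± 0.40 (adjusted p = 1.95e-14). Alox12e, which oxygenates polyunsaturated fatty acids, was at 125 and 188 CPM, against 7.51 and 9.26 CPM and 4.12 CPM and 0. It was higher by 4.06 ± 0.54 (adjusted p = 5.56e-11) and 5.09 ± 0.55 (adjusted p = 3.01e-17). DESeq2 called Pcdh17 and Alox12e in both comparisons. Pmch, the precursor of melanin-concentrating hormone, had 97 UMIs in the Fabp7 epithelium and none in either other epithelium, at least 17.4-fold higher than the Ucma epithelium and 28.7-fold higher than the Fibin epithelium on a floor of 3 UMIs over both libraries. The exons of Pmch overlap those of Parpbp. Lockd, a long non-coding RNA chosen after its values were seen, was at 2037 and 2659 CPM, against 434 and 723 CPM in the Ucma epithelium and 474 and 844 CPM in the Fibin epithelium.

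Of 22 tested lipid genes other than Fabp7, none was higher and 2 were lower than in the Ucma epithelium (median 0.064), and 2 were higher and 3 lower than in the Fibin epithelium (median -0.33). Fabp3, the heart-type fatty acid-binding protein whose exons overlap Zcchc17, was at 158 and 177 CPM. It was at 424 and 176 CPM in the Ucma epithelium and at 614 and 130 CPM in the Fibin epithelium, so that only library 1 was lower. Its differences were -1.07 ± 0.34 (adjusted p = 0.049) and -1.30 ± 0.33 (adjusted p = 0.0028), and DESeq2 called neither (adjusted p = 0.997 and 0.856). Fabp5 was at 26.7 and 55.2 CPM and passed in neither. Dbi, an acyl-CoA-binding protein, was at 5435 and 5374 CPM and was higher than in the Fibin epithelium by 1.37 ± 0.25 (adjusted p = 3.19e-06). Apoe, a lipid carrier, was at 896 and 728 CPM and fell by 1.52 ± 0.25 against the Ucma epithelium (adjusted p = 4.18e-07), where it was at 3179 and 1501 CPM. Apoe was not called there by DESeq2 (adjusted p = 0.116) or without the library block (adjusted p = 0.695). The related Apoc1 was at 22.3 and 11 CPM, against 345 and 120 CPM there, and fell by 3.76 ± 0.39 (adjusted p = 1.66e-18).

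Calls among Wnt genes other than Fzd9 went in both directions. Of 31 tested, 2 were higher and none lower than in the Ucma epithelium (median -0.13), and 1 was higher and 5 lower than in the Fibin epithelium (median -0.21). Over all genes tested, 1.11% were higher and 1.83% lower than in the Ucma epithelium. Against the Fibin epithelium 3.59% were higher and 3.87% lower. Tcf7l2, a nuclear effector of Wnt signalling, was at 84.6 and 143 CPM, against 27.0 and 46.3 CPM and 42.0 and 32.4 CPM. It was higher by 1.61 ± 0.43 (adjusted p = 0.00998) and 1.28 ± 0.38 (adjusted p = 0.0148), and DESeq2 called it in neither (adjusted p = 0.182 and 0.198). The 5 lower genes were Fzd1, Lgr6, Axin2, Lef1 and Wif1. Of 14 FGF pathway genes, none was higher and 2 were lower than in the Ucma epithelium, and 2 were higher and 2 lower than in the Fibin epithelium.

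Connexin transcripts stood at very different levels in the 2 libraries. Gjb2 was at 608 and 121 CPM, against 1153 and 963 CPM in the Ucma epithelium and 846 and 1525 CPM in the Fibin epithelium. Gjb6 was at 358 and 11 CPM, against 840 and 769 CPM and 806 and 1444 CPM. The Gjb6 differences were -1.72 ± 1.04 (adjusted p = 0.753) and -1.91 ± 1.06 (adjusted p = 0.546), and those of Gjb2 were -1.32 ± 0.99 (adjusted p = 0.814) and -1.17 ± 1.01 (adjusted p = 0.75). None of the 3 tested gap junction genes passed. In the 44 cells that had all 5 rule genes, the log2 differences were -3.14 and -3.28 for Gjb6 and -2.21 and -2.02 for Gjb2. These carry no test, since that subset was chosen after the low connexin levels in it were seen. Slc1a3 was at 227 and 22.1 CPM here, 182 and 27.8 CPM in the Ucma epithelium and 541 and 1071 CPM in the Fibin epithelium, and passed in neither. Of 17 genes for glutamate and amino acid uptake, none passed against the Ucma epithelium, and 1 was higher and 1 lower than in the Fibin epithelium.

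Ion and water handling and junction genes gave scattered calls. Of 29 potassium, chloride and water genes, 2 were higher and 4 lower than in the Ucma epithelium, and 6 were higher and 5 lower than in the Fibin epithelium. Fxyd6, a regulator of the sodium pump, was at 410 and 353 CPM, against 1296 and 2603 CPM in the Ucma epithelium, and fell by 2.31 ± 0.28 (adjusted p = 5.63e-13). DESeq2 also called Fxyd6. Atp1b1, a sodium pump subunit whose exons overlap Nme7, was at 1132 and 1512 CPM and was higher than in the Fibin epithelium by 1.06 ± 0.27 (adjusted p = 0.00301). Of 28 tight junction and adhesion genes, 2 were higher and none lower than in the Ucma epithelium, and 3 were higher and 1 lower than in the Fibin epithelium. Cldn7 was higher in both, by 1.22 ± 0.34 (adjusted p = 0.0182) and 1.00 ± 0.32 (adjusted p = 0.0283), and DESeq2 called it in neither (adjusted p = 0.642 and 0.488). Cldn9 and Epcam passed in neither.

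Of 37 tested secreted and matrix genes, 1 was higher and 5 lower than in the Ucma epithelium (median -0.41), and 1 was higher and 7 lower than in the Fibin epithelium (median -0.90). Tectb, a tectorial membrane protein, was at 50.5 CPM and 0, against 316 and 406 CPM in the Fibin epithelium, and fell by 2.91 ± 0.35 (adjusted p = 1.18e-13), while DESeq2 gave 0.491. Otoa, which anchors the tectorial membrane, was at 5.94 CPM and 0 against 31.3 and 32.4 CPM there, and fell by 2.42 ± 0.67 (adjusted p = 0.00723). Bmp4, a signalling protein of the outer side of the duct whose exons overlap Gm15217, had 2 UMIs in the Fabp7 epithelium and 154 in the Ucma epithelium. The Ucma epithelium was thus 143 times higher per UMI (95% counting interval 39.0 to 1192, adjusted p = 2.98e-29). Coch, a secreted protein of the spiral ligament and limbus, was at 151 and 143 CPM and passed in neither epithelial comparison.

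Cell cycle genes were lower than in the Fibin epithelium, 14 of 20 tested with 1 higher and a median of -2.47. Against the Ucma epithelium 4 were lower and 1 higher, with a median of -1.25. All 3 tested B lineage markers (Cd79a, Vpreb3 and Ebf1) also passed as lower than in the Fibin epithelium (median -2.07), and the 4 of that list summed to 375 and 221 CPM here, 1152 and 1249 CPM in the Fibin epithelium and 542 and 287 CPM in the Ucma epithelium. Erythroid markers were higher in both other epithelia in library 1 (values above). The part of these cells in the cell cycle calls was not tested. Ccnd2, a cyclin of the first gap phase, was at 8.16 CPM and 0, against 101 and 18.5 CPM and 150 and 32.4 CPM, and fell by 3.42 ± 0.50 (adjusted p = 6e-09) and by 3.95 ± 0.48 (adjusted p = 9.79e-14). The cell cycle inhibitor gene Cdkn1b was the higher one in both, at 430 and 353 CPM against 204 and 130 CPM and 144 and 162 CPM. Cdkn1b differed by 1.14 ± 0.31 (adjusted p = 0.0113) and 1.60 ± 0.32 (adjusted p = 3.77e-05). Against the Ucma epithelium Cdkn1b was not called by DESeq2 (adjusted p = 0.0845) or without the library block (adjusted p = 0.138).

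Genes of astrocytes and radial glia, the cells for which Fabp7 is best known, did not move as a block. Of 30 tested, 2 were higher and 7 lower than in the Ucma epithelium (median -0.33), and 5 were higher and 4 lower than in the Fibin epithelium (median -0.16). Ttyh1, a chloride channel family member of glia, was at 149 and 143 CPM, against 49.6 and 46.3 CPM and 39.5 and 130 CPM. It was higher by 1.56 ± 0.38 (adjusted p = 0.00252) and 1.66 ± 0.37 (adjusted p = 0.000284), and DESeq2 called it in neither (adjusted p = 0.36 and 0.351). Of 78 genes of hereditary deafness, 1 was higher and 2 lower than in the Ucma epithelium, and 2 were higher and 8 lower than in the Fibin epithelium. Over all genes tested, 2.94% and 7.46% passed in these 2 comparisons. Of 26 immediate early and heat shock genes, none was higher in either comparison and 2 and 1 were lower.

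**Figure D5:**
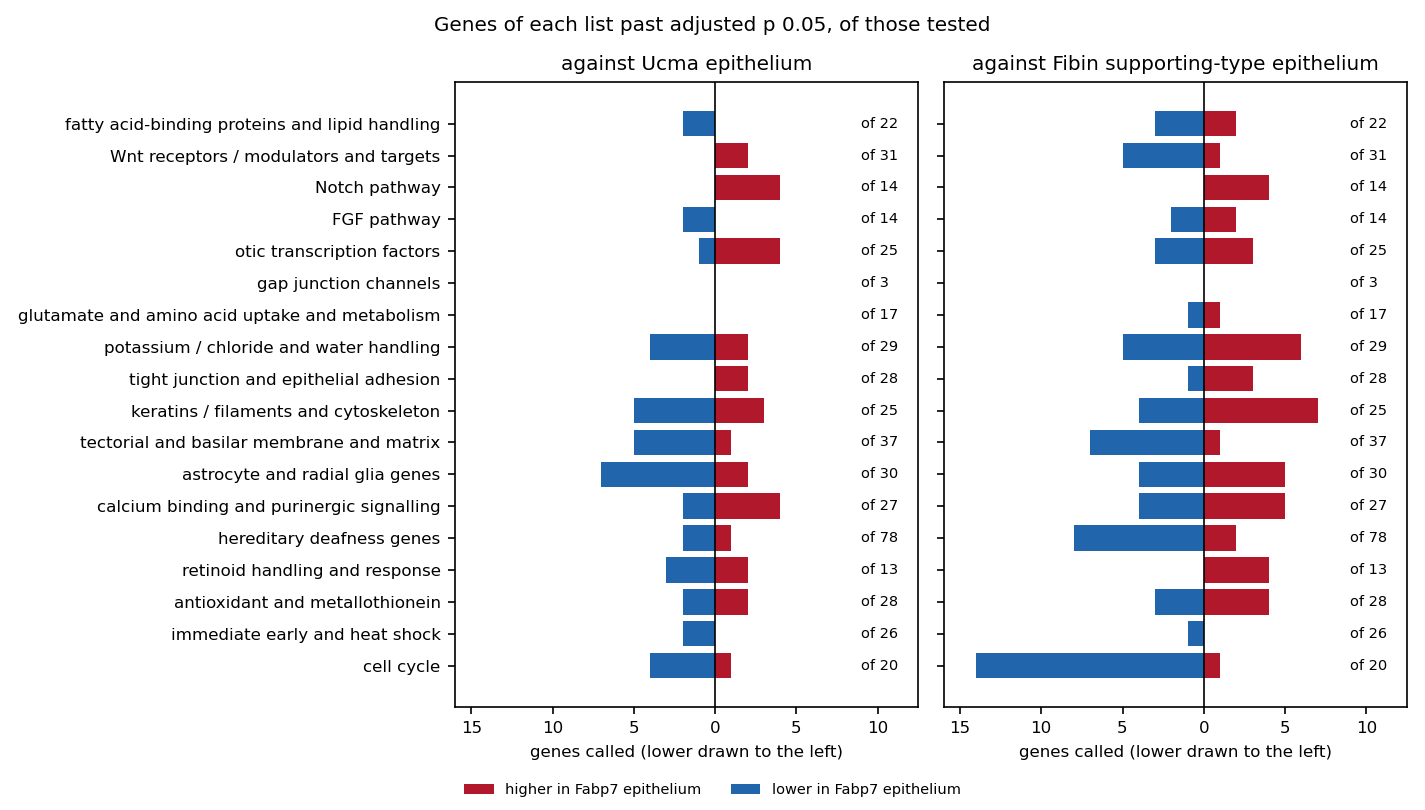
Number of genes of each list past adjusted p 0.05, higher (right) and lower (left) in the Fabp7 epithelium, against the Ucma epithelium and the Fibin epithelium, with the number tested at the right. The Notch list has 4 higher and none lower in both panels, and the cell cycle list has 14 lower against the Fibin epithelium. Genes that a class rule uses, such as Lfng of the Notch list, were not tested.

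Against mesenchymal cells the differences were wide. Against Otos fibrocytes 33.5% of genes passed, 1751 upward (17.2%) and 1663 downward (16.3%). Of these, 1464 were higher and 1636 lower in both libraries. In the 6 cells of library 2, 251 of the 1751 and 773 of the 1663 had no UMI. DESeq2 also called 974 of the 1751 and 1084 of the 1663. Against Dcn fibroblasts 32.8% passed, 1725 upward (16.9%) and 1616 downward (15.9%). Here 1430 were higher and 1587 lower in both libraries, and 252 of the 1725 and 766 of the 1616 had no UMI in the 6 cells. DESeq2 also called 964 of the 1725 and 1062 of the 1616. Tight junction and adhesion genes were higher in 19 of 28 and lower in 3 against fibrocytes (median 6.20), and higher in 20 and lower in 2 against fibroblasts (median 5.15). Notch genes were higher in 9 of 14 and lower in 2 against fibrocytes, and higher in 8 and lower in 1 against fibroblasts. Agr3, a disulfide isomerase family member of epithelia, had 264 UMIs here and none in fibrocytes, at least 167-fold higher. Isl1, a transcription factor of the otic epithelium, was at least 201-fold and Emx2, another, at least 63.8-fold higher than in fibrocytes. Cldn4, a claudin, was at least 53.7-fold higher than in fibrocytes and 43.3-fold higher than in fibroblasts. Hey2 was at least 69.8-fold higher than in fibroblasts.

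Among the genes lower than in mesenchyme, Osr1, a transcription factor of mesenchyme, had no UMI in the Fabp7 epithelium and was at least 30.6-fold lower than in fibrocytes and at least 80.6-fold lower than in fibroblasts. Zbtb16 was at least 35.3-fold lower than in fibroblasts. Immediate early and heat shock genes were lower in 22 of 26 against fibrocytes and in 20 of 26 against fibroblasts, and none was higher. Lipid genes other than Fabp7 were higher in 5 of 22 and lower in 4 against fibrocytes (median 0.15), and higher in 13 and lower in 2 against fibroblasts (median 1.10). Wnt genes were lower in 16 of 31 and higher in 8 against fibrocytes, and lower in 15 and higher in 9 against fibroblasts. Retinoid genes split as 4 higher and 5 lower, and 3 higher and 5 lower.

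Hair cells numbered 43 and 4, too few in library 2 for a test, so their values are given alone. Hey1 was at 11.1 CPM and 0 in hair cells, beside 426 and 419 CPM in the Fabp7 epithelium. Krt18 was at 3.17 CPM and 0 there, and Hey2 was at 0 in both libraries. S100a1 was at 2412 and 2804 CPM in hair cells, and Sox2 at 3.17 and 27.8 CPM. Cldn9 was at 429 and 583 CPM in hair cells, within the range of the 3 other epithelial classes. Otof, the hair cell synaptic protein gene, was at 137 CPM and 0 in the Fabp7 epithelium, and at 1.34 CPM and 0 in its 43 cells that met no other rule. Otof is a gene of the hair cell rule, so its low level in those 43 cells follows in part from how they were chosen.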

How the data were processed

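Each of the 2 samples was a droplet library with a matrix of UMI counts per gene and barcode. Per the submitters' processing notes, the authors made these counts with Cell Ranger 2.1.0 on mm10. Of 27998 gene identifiers, 56 symbols stand on several. Counts were summed per class and library (minimum 5 cells, so hair cells stayed out) and fitted in edgeR 4.0.16 (R 4.3.3; TMM, minimum count 10, robust quasi-likelihood, prior count 2, 4 residual degrees of freedom), with Benjamini-Hochberg adjustment and a threshold of 0.05. Library was a block because each library supplies cells of every class. CPM intervals are exact Poisson and shares exact binomial (Clopper-Pearson), at 95%, and a count of 0 has a floor of 3 UMIs. Alternatives were DESeq2 1.42.0, its size factors, no block, no low-count filter, stricter cells, stricter rules, Scrublet, and each library left out. Members and lists were chosen with earlier results of these data known. Named genes were the rule and marker genes, 16 genes fixed by name, per comparison the 10 higher and 10 lower with the largest change (called, 1 sign in both libraries, at least 50 CPM in the higher class), of which a part is described, and per list those called in both epithelial comparisons, or the 4 most abundant. Other genes named were chosen after their values were seen. Of 142 such genes, 140 were placed in GENCODE M21, where exons of 9 overlap another gene on the same strand and of 35 on the other. A few of them are not reported here.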

Additional observations from a re-analysis of the deposited data

How the results depend on the processing

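DESeq2 called fewer genes: 17 higher and 16 lower against the Ucma epithelium, 88 and 42 against the Fibin epithelium, 977 and 1095 against fibrocytes, and 967 and 1074 against fibroblasts. With no replicate block the counts were 37 and 28 against the Ucma epithelium and 152 and 114 against the Fibin epithelium; the cause was not tested. Narrower membership raised some counts and also lost some of the first calls. With the 44 cells that had all 5 rule genes, 210 were higher and 394 lower than in the Ucma epithelium, and 619 lower than in the Fibin epithelium. Leaving the cells with 3 or 4 rule genes out of the fit altogether gave 223, 409 and 669. That fit kept 109 of the 113 higher and 155 of the 186 lower calls against the Ucma epithelium. Against the Fibin epithelium it kept 292 of the 365 higher and 352 of the 394 lower calls. Of the higher calls it kept 1473 of 1751 against fibrocytes and 1389 of 1725 against fibroblasts, and of the lower calls 1502 of 1663 and 1460 of 1616. These 2 settings were chosen after seeing the data. With 4 or more rule genes, 329 were lower than in the Ucma epithelium, and without the 29 cells that met another rule (43 left) 618 were lower than in the Fibin epithelium. The number of members was 39 when the rule was applied after thinning, and 6 to 66 when either library was left out. Leaving out either library, with no test, gave log2 differences that changed sign between library 1 alone and library 2 alone (without replicate 1, 6 cells left): Cdkn1c -2.52 to 2.37 and Tagln2 -1.98 to 2.37 against the Fibin epithelium, Fabp3 -1.41 to 0.0043 against the Ucma and -1.94 to 0.44 against the Fibin epithelium, Mt2 -3.82 to 0.20 against the Ucma epithelium, and Tectb 4.33 to -0.47 against fibroblasts. Slc1a3 against the Ucma epithelium turned to -1.51 without the cells that met another rule. For single genes named in a comparison, DESeq2 left 402 of 490 on the same side of the threshold and moved 85 out, and dropping the block left 444 of 532 and moved 88 out; genes to which DESeq2 gave no adjusted p are not counted. Library 2, with 6 cells and 90625 UMIs, limits every value.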
